A study of Homo sapiens with 8 samples.

Results

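The 163 genes described here carry a symbol made of ZNF and a number. Each averaged at least 5 reads per 1000000 (CPM) over 8 libraries in the transcript row of that symbol with the highest mean. They were 163 of the 477 such symbols in the table, and of 8656 genes of any kind at that level. They were thus chosen by their mean CPM, so their read level is a description and was not tested. Just inside the limit were ZNF498 at 5.08, ZNF770 at 5.15 and ZNF419 at 5.16 CPM. Just outside it were ZNF304 at 4.94, ZNF642 at 4.96 and ZNF548 at 4.99 CPM. The symbols are those of the deposited table, and RefSeq now lists the rows of 10 members under other names, among them ZNF167 (ZKSCAN7), ZNF238 (ZBTB18), ZNF259 (ZPR1) and ZNF828 (CHAMP1). The row of ZNF177, counted among these, is listed as ZNF559-ZNF177, which joins it to ZNF559 and is not a new name for the gene.

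The libraries come from NALM6, an established human precursor B-cell leukaemia line engineered to express HMGN1, a chromatin protein that binds nucleosomes, under doxycycline. In the vehicle group (3 libraries) the line with wild-type HMGN1 received vehicle, and in the induced wild type group (3 libraries) the same line received 100 ng/ml doxycycline for 6 h. In the induced mutant group (2 libraries) a line carrying the nucleosome binding-deficient S20,24E form received the same doxycycline treatment. No vehicle library of the mutant line was analysed here, so the mutation, the line and the induction cannot be told apart in comparisons with vehicle, nor the mutation and the line in comparisons with the induced wild type. All groups received 100 µM 4-thiouridine, a uridine analogue that enters new RNA, for the last 5 h, and the labels call the libraries biological replicates. The labels do not say whether a line is 1 clone.

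After the thiol is alkylated, 4-thiouridine is read as C in place of T, so the share of converted T bases rises with the part of a gene's RNA made during the labelling (SLAM-seq). Genes with short-lived transcripts are replaced quickly and tend to show more conversion, while long-lived transcripts such as those of ribosomal proteins show little. Zinc finger genes encode the largest family of human transcription factors. Each classical C2H2 finger is a short loop held by a zinc ion between cysteine and histidine residues, and neighbouring fingers read DNA side by side. Many of these proteins also carry a KRAB box, which binds TRIM28 and through it the histone methyltransferase SETDB1 and HP1 proteins, and silences transposons and genes. Others carry a SCAN domain, through which they pair with each other. Transcripts of regulatory proteins, zinc finger factors included, are often short-lived.

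Parts of 4 coding sequences show what the family shares and which bases the assay reads. Sequences are from GENCODE 29 transcripts on build GRCh38, in lower case, with T in capitals as the base at which a conversion can be seen. ZNF777 had the highest conversion among members with a KRAB match, and ZNF341 the lowest among members with at least 3 fingers and no KRAB match. ZNF384, a fusion partner in B-cell leukaemia, and ZNF143, an activator bound at many promoters, were taken from a list of members with known roles.

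ZNF777 KRAB box, chr7:149454142-149454189, minus strand: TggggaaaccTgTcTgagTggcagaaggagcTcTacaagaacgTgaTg

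ZNF777 first finger, chr7:149432568-149432630, minus strand: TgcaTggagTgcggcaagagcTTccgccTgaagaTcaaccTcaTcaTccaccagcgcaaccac

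ZNF341 first finger, chr20:33758748-33761865, plus strand: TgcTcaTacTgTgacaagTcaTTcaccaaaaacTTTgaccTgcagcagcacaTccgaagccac

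ZNF384 first finger, chr12:6673377-6673439, minus strand: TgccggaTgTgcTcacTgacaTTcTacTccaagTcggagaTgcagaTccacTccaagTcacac

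ZNF143 first finger, chr11:9494715-9496320, plus strand: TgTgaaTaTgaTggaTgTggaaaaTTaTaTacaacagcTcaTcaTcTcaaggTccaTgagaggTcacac

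The fingers of ZNF341 and ZNF143 are joined across an intron, so their coordinates span more bases than are printed. T made up 15.9% of the bases in the ZNF777 finger, 20.6% in that of ZNF341, 22.2% in that of ZNF384 and 26.1% in that of ZNF143. Rows of 1 read held conversion values strictly between 0 and 1 in 1339 to 1824 rows a library, so conversion is read here as a share of T bases and not of reads.

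The libraries held between 7985544 and 17747784 reads, as recovered from the size of 1 read in the CPM values. HMGN1, the induced gene, averaged 163 ± 24.4 CPM with vehicle (SD, n = 3), 262 ± 51.0 in the induced wild type (n = 3) and 211 ± 16.7 in the induced mutant (n = 2). Every induced library lay above every vehicle library. Its conversion was 1.47 ± 0.37%, 4.82 ± 2.04% and 3.32 ± 1.87% in the same order. An exact two-sided permutation test on the absolute difference of means against vehicle gave p = 0.1 for the induced wild type in both measures, and p = 0.2 (CPM) and 0.1 (conversion) for the mutant. Doubling the smaller tail instead gives 0.2 for that last value, and no design of this size can go below 0.1. All 14 precursor B-cell markers stood at 5 CPM or more, and 2 of the 4 T-cell markers found were at 0, with at most 0.145 CPM summed in any library. Of the 5 myeloid markers, CSF1R averaged 415 CPM, while MPO averaged 0.15, CD14 0.39, LYZ 1.47 and ELANE 0. The erythroid markers summed to at most 0.0964 CPM in any library, the fibroblast markers to at most 1.75 and the epithelial markers to at most 2.75.

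ZNF transcripts were more converted than the typical gene in every library. The median member stood at 6.97% conversion in vehicle A against 4.94% over all genes at 5 CPM or more, at 7.60% against 5.86% in vehicle B, and at 8.43% against 6.75% in vehicle C. In the induced wild type, members stood at 8.61% against 6.70% (A), 7.14% against 5.41% (B) and 9.31% against 7.33% (C). In the induced mutant they stood at 8.33% against 6.82% (A) and 6.95% against 5.44% (B). The member median was thus above the gene median in 8 of 8 libraries, by 1.41-fold in vehicle A and by between 1.22-fold and 1.32-fold in the other 7. By group, the ratio of the medians was 1.32 ± 0.084 with vehicle (SD, n = 3), 1.29 ± 0.025 in the induced wild type (n = 3) and 1.25 ± 0.039 in the induced mutant (n = 2), and the ranges overlap.

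**Figure D1:**
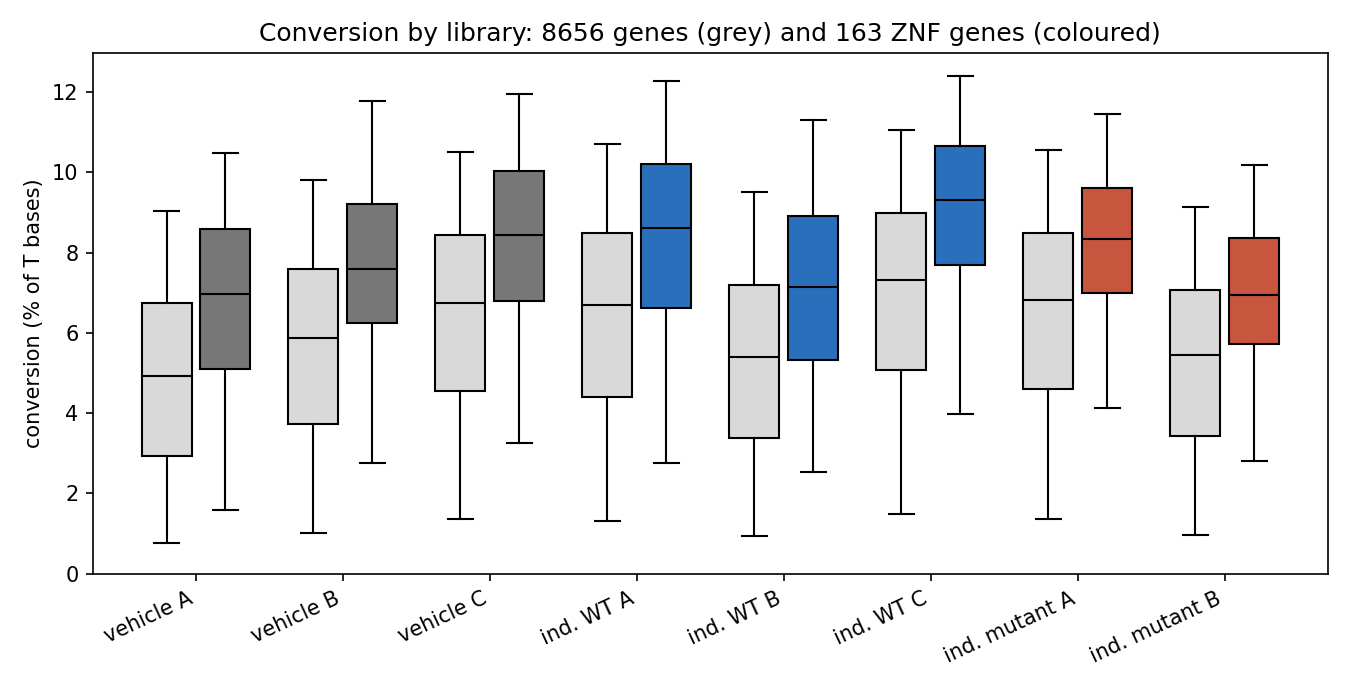
Conversion (% of T bases) in each of 8 libraries, for the 8656 genes at 5 CPM or more (grey) and the 163 ZNF genes (coloured by group). Boxes show quartiles and median, whiskers the 5th and 95th percentiles. The median of the ZNF genes lies above that of all genes in each library.

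Each member's conversion was then divided by its library's median over all genes, and the median of these ratios over the 8 libraries was taken. The members' median ratio was 1.28, with quartiles of 1.05 and 1.51, against 1.01 (0.66 and 1.26) over all genes. The ratio exceeded 1 for 126 of 163 members (77.3%). It exceeded 1 in all 8 libraries for 93 members (57.1%), against 33.2% of all genes, and stayed below 1 in all 8 for 20 members (12.3%), against 36.6% of all genes. The other 50 members lay above in some libraries and below in others. No p is given for these counts, since the members were proposed with results of these data known.

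Many members had few reads, so conversion was also compared within classes of read level. Member means ran from 5.08 to 203 CPM with a median of 9.97, against 17.1 over all genes at 5 CPM or more. The 84 members between 5 and 10 CPM had a median ratio of 1.28, where all genes of that level had 1.09. The 58 members between 10 and 20 CPM also had 1.28, against 1.11 over all genes. The 21 members at 20 CPM or more had 1.21, against 0.84. The member median was therefore above that of all genes at each level. The gap was widest in the top class, where all genes had their lowest ratio. From the lowest class to the top, 70 of 84, 43 of 58 and 13 of 21 members had a ratio above 1. The top class has no upper limit, so read levels in it are not alike. It holds cytosolic ribosomal protein genes, whose median was 744 CPM. CPM values are not divided by length, and in 198 of 199 pairs of transcripts with the same span but exon lengths over 300 bases apart the deposited values were identical, so reads over introns can be part of a gene's value.

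**Figure D2:**
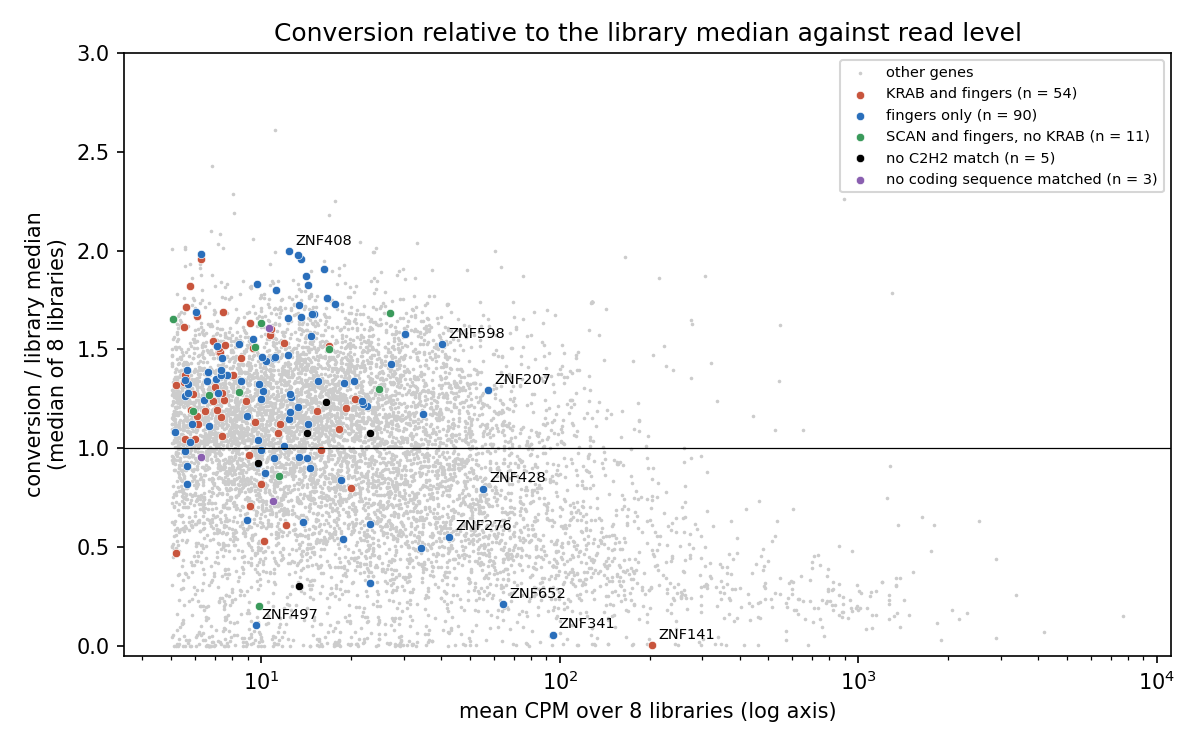
Conversion divided by the library median (median of 8 libraries) against mean CPM (log axis), for 163 ZNF genes by protein class and for the other genes at 5 CPM or more (grey, with 2 genes above the axis). Most ZNF genes lie above the line at 1, and ZNF141, ZNF341 and ZNF652, 3 of those with the most reads, lie far below it.

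The most converted members were ZNF408, ZNF79, ZNF48, ZNF777, ZNF296, ZNF574, ZNF646 and ZNF668, each above its library's median in 8 of 8 libraries. ZNF408, linked to inherited retinal disease, was converted at 11.7, 13.0 and 13.1% with vehicle, at 12.3, 11.2 and 12.3% in the induced wild type and at 10.9 and 11.2% in the mutant. Both mutant libraries lay below all 3 vehicle libraries in percent. Relative to the library median its groups overlap, and its median ratio was 2.0. ZNF777, a KRAB zinc finger protein, was converted at 10.0, 12.9 and 11.96% with vehicle, at 12.7, 9.69 and 14.8% in the induced wild type and at 11.2 and 11.8% in the mutant. Its ratio was 1.96, from between 38 and 120 reads a library. The ratios of the other 6 were 1.98 for ZNF79, 1.98 for ZNF48, 1.96 for ZNF296, 1.91 for ZNF574, 1.87 for ZNF646 and 1.83 for ZNF668. All 8 averaged between 6.3 and 16.2 CPM. Relative to the library median the groups of 5 of the 8 overlap in every comparison. The mutant lay above vehicle in ZNF79, above the induced wild type in ZNF668, and below both in ZNF646, with 2 mutant libraries in each case. Over all genes, centred conversion of the mutant lay wholly above vehicle for 10.6% and wholly below it for 13.0%. Against the induced wild type these shares were 9.88% and 11.5%. In all, 44 members (27.0%) had a ratio of 1.5 or more, against 8.51% of all genes.

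A small number of members went the other way. ZNF141, a KRAB zinc finger gene, had the highest read level of the family, at 322, 204 and 165 CPM with vehicle, 175, 228 and 133 CPM in the induced wild type and 155 and 243 CPM in the mutant. Its conversion lay between 0.0106 and 0.0249% in every library, and 45 of the 8656 genes had a lower ratio. ZNF341, a regulator of STAT3 transcription, had 108, 81.6 and 97.7 CPM with vehicle, 97.4, 105 and 76.6 in the induced wild type and 90.4 and 98.9 in the mutant. Its conversion was 0.245, 0.441 and 0.360% with vehicle, 0.407, 0.278 and 0.495% in the induced wild type and 0.463 and 0.207% in the mutant. Both genes were nearly unconverted in all groups, and the groups overlap.

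ZNF652, a transcriptional repressor, averaged 64.4 CPM with a ratio of 0.21, and ZNF497 averaged 9.6 CPM with a ratio of 0.10. ZNF167 had a ratio of 0.20, ZNF185, a LIM domain protein without a C2H2 match, 0.30, ZNF367 0.32 and ZNF529 0.47. All 8 of these lowest members lay below the library median in 8 of 8 libraries. ZNF529, also a KRAB gene, was converted at 1.01, 2.71 and 3.23% with vehicle, at 2.55, 2.69 and 3.06% in the induced wild type and at 4.37 and 3.27% in the mutant, whose 2 libraries were the highest. Relative to the library median, ZNF167 in the induced wild type lay below vehicle and below the mutant. Its log2 difference between mutant and induced wild type was 0.61 (SE 0.20), with a limma adjusted p of 0.847. Over all genes, centred conversion of the induced wild type lay wholly below vehicle for 4.68%. The mutant lay wholly above the induced wild type for 9.88% and above vehicle for 10.6%. In all, 7 members (4.29%) had a ratio under 0.4, against 11.8% of all genes. Without these 7 the members' median ratio was 1.28, as with them. The limits of 0.4 and 1.5 were chosen after the values were seen.

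**Figure D3:**
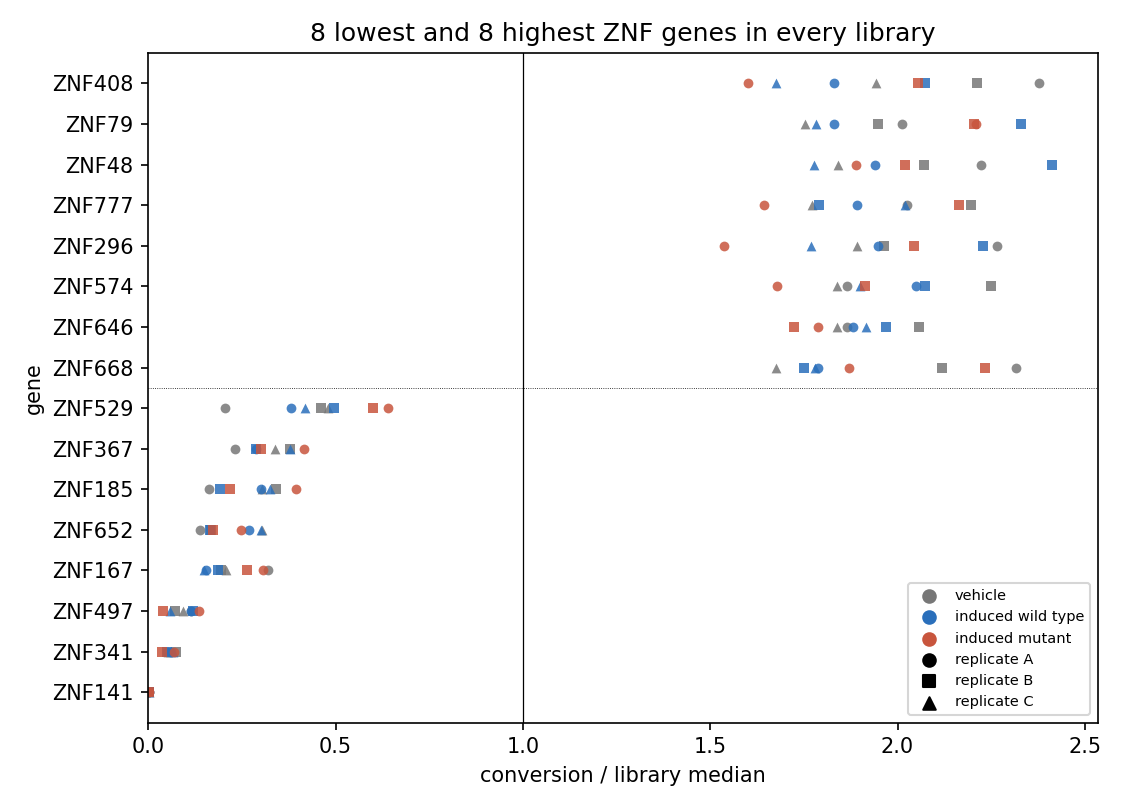
Conversion divided by the library median in each of 8 libraries, for the 8 ZNF genes with the lowest and the 8 with the highest median ratio, coloured by group with 1 symbol per replicate letter. Groups overlap in most genes, and the lowest and highest sets do not meet. The mutant stands apart from both other groups in ZNF646 and ZNF529, from vehicle only in ZNF79, and from the induced wild type only in ZNF668 and ZNF167. In ZNF167 the induced wild type also lies below vehicle.

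The genome around the lowest members was then read from the annotation. ZNF141 (GRCh38 chr4:337814-384864) holds the processed pseudogenes AC079140.1 and AC079140.2 inside its span, ZNF341 holds RPL31P2, ZNF167 holds MPRIPP1 and ZNF367 holds AL133477.1. None was annotated inside ZNF497, ZNF652, ZNF185 or ZNF529, nor inside any of the 8 highest members. Over the family, the 17 members with a processed pseudogene in their span had a median ratio of 0.84, with 7 of 17 above 1, against 1.30 for the 146 without. Over all genes the same split gave 0.91 and 1.04. Whether reads of a pseudogene or its parent enter these values was not tested. Without the 17, 119 of 146 members (81.5%) lay above 1.

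Short ZNF genes were the most converted. The 22 members with a span under 10 kb had a median ratio of 1.55, the 77 from 10 to 30 kb had 1.34, the 54 from 30 to 100 kb had 1.10 and the 10 of 100 kb or more had 1.23. Over all genes the same classes had 0.97, 1.02, 1.02 and 1.03, a narrower range in which the shortest genes had the lowest ratio. The median span was 23.5 kb for members and 31.3 kb for all genes with an annotated span. Another protein-coding gene overlapped 53 members, 26 on the same strand and 34 on the opposite strand, and no source says whether the counting used strand. These 53 had a median ratio of 1.20, against 1.28 for the 110 with no such overlap. ZNF276, which FANCA and VPS9D1 overlap on the opposite strand, is one of them, with 42.5 CPM and a ratio of 0.55.

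Conversion differed little between protein classes. Of the 160 members with a coding sequence in GENCODE 29, 155 had at least 1 match to the C2H2 finger pattern, with a median of 9 fingers and a maximum of 31 in ZNF142, whose ratio was 1.68. The 54 members with a KRAB match and fingers had a median ratio of 1.25, and the 101 with fingers and no KRAB match had 1.29, with the KRAB class higher in 2 of 8 libraries. KRAB members had fewer reads, with a median of 7.43 CPM against 11.2. The 11 members with a SCAN match and no KRAB match had 1.30. The 90 with fingers and no match to either pattern had 1.29, and they include ZNF434 (ZSCAN32) and ZNF238 (ZBTB18). The fixed KRAB pattern misses some known KRAB proteins, ZNF224 among them. With a pattern of the end of the box added after this was seen, the 59 members matching either pattern had 1.28 and the other 96 had 1.29.

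The number of fingers did not order the ratios either. Members with 1 to 4 fingers had a median ratio of 1.30, those with 5 to 9 had 1.28 and those with 10 or more had 1.27. The 55 members on chromosome 19, where zinc finger genes lie in clusters, had 1.27 and the 108 elsewhere had 1.28, with chromosome 19 higher in 2 of 8 libraries. In the chromosomal order of annotated genes at 5 CPM or more, 49 pairs of members were neighbours. Genes below that level can lie between the members of a pair. Ratios of neighbours differed by a median of 0.28 on the log2 scale, against 0.40 over all 13203 pairs of members. Of the neighbour pairs, 3 overlap and can share reads: ZNF580 with ZNF581, ZNF814 with ZNF587, and ZNF789 with ZNF394. The 5 members without a C2H2 match (ZNF185, ZNF738, ZNF330, ZNF839 and ZNF259) had a median ratio of 1.08. The 3 without a coding sequence, which RefSeq lists as pseudogenes (ZNF271, ZNF252 and ZNF767), had 0.96.

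Related families gave a scale for these values. The 13 ZBTB genes, whose zinc fingers are joined to a BTB domain, had a median ratio of 1.46, and the 8 ZSCAN and ZKSCAN genes had 1.18. The 77 cytosolic ribosomal protein genes had 0.229, with none above 1. Differences between these families and the ZNF members were not tested.

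Members with known roles were read from a list of 26 genes, of which 19 were members and 17 had a ratio above 1. Of all 163 members, 77.3% had a ratio above 1. Among DNA-binding factors, ZNF263, a SCAN domain protein, had a ratio of 1.69 at 26.9 CPM. ZNF143 had a ratio of 1.52 at 7.09 CPM, and ZNF274, a KRAB protein bound at the ends of other zinc finger genes, had 1.505 at 9.38 CPM. ZNF384 had 1.34 at 20.4 CPM, ZNF148 had 1.39, ZNF24 1.30, ZNF93, a KRAB repressor of LINE-1 elements, 1.24, ZNF146 1.21 and ZNF217, an oncogene amplified in breast cancer, 1.12. Those named in this group lay above the typical gene. The list itself was not divided by role, and its members below 1 are given with the other roles.

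Other members on that list have varied roles. ZNF622 and ZNF593, assembly factors of the large ribosomal subunit, had ratios of 1.66 and 1.58. ZNF598, the ubiquitin ligase that marks collided ribosomes, had 1.53 at 40.3 CPM, and ZNF207, a spindle and kinetochore protein, had 1.29 at 57.4 CPM. ZNF687 and ZNF592, which act in a complex with ZMYND8, had 1.46 and 1.24, ZNF638 had 1.17 and ZNF330, a nucleolar protein, 1.08. The 2 below 1 were ZNF326, a partner of RNA polymerase II in splicing, at 0.95, and ZNF318 at 0.63.

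The co-repressors that KRAB proteins recruit were spread around the typical gene. Of 40 listed chromatin genes 35 stood at 5 CPM or more, with a median ratio of 1.06 and 21 above 1. Among the low ratios were those of the histone-binding proteins RBBP4 at 0.45 and RBBP7 at 0.47. The highest were the histone methyltransferase SUV39H1 at 1.72, the histone chaperone DAXX at 1.60 and UHRF1, which guides DNA methylation, at 1.60. TRIM28 and SETDB1, named after their values were seen, had 1.24 and 1.20. The HP1 genes CBX3 and CBX5, also named after their values were seen, had 0.52 and 0.53. Both lay below the library median in every library. No gene of this list passed the threshold in any comparison by limma, whose smallest adjusted p was 0.0823, in converted FPKM of the mutant against vehicle.

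The deposited table of converted reads lists 129 members, 127 with a mean above 0 and 88 with a mean of at least 1 FPKM. The highest means were 20.1 FPKM for ZNF3, 14.4 for ZNF276, 13.8 for ZNF397, 12.9 for ZNF644 and 12.8 for ZNF761. Only the 88 at 1 FPKM or more entered the tests. ZNF141, ZNF341, ZNF497 and ZNF777 have no value in it. Conversion and FPKM do not rank the members alike: ZNF408, with the highest ratio, averaged 0.284 FPKM.

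Group differences were tested with limma on log2 values of all 8 libraries, with Benjamini-Hochberg adjustment over all genes tested and a threshold of 0.05. In all reads 0 of 163 members passed in each comparison, against 0.0% of all genes for the induced wild type against vehicle, 0.0322% for the mutant against vehicle and 0.0322% for the mutant against the induced wild type. At an unadjusted p under 0.05 there were 0, 0 and 1 members, against 0.934%, 3.76% and 2.75% of all genes, and edgeR and DESeq2 on recovered reads also called 0. In conversion, 0 of 163 members passed in each comparison, against 0.0% of all genes in each, with 7, 19 and 7 members at an unadjusted p under 0.05 (4.29%, 11.7% and 4.29%), against 4.73%, 8.32% and 5.21% of all genes. In converted FPKM 0 of 88 members passed in each comparison, against 0.0%, 0.401% and 0.0% of all genes, with 6, 7 and 2 members at an unadjusted p under 0.05 (6.82%, 7.95% and 2.27%), against 7.93%, 11.8% and 2.95% of all genes. Members whose groups did not overlap were also counted, for the same 3 comparisons in the same order. In all reads 1, 2 and 0 members lay wholly higher, against 2.53%, 4.58% and 1.8% of all genes, and 2, 9 and 12 wholly lower, against 1.49%, 11.4% and 13.2%. In conversion 4, 14 and 13 lay wholly higher, against 4.68%, 10.6% and 9.88%, and 5, 33 and 23 wholly lower, against 4.68%, 13.0% and 11.5%. In converted FPKM 13, 20 and 5 of 88 lay wholly higher, against 10.7%, 20.4% and 5.18%, and 2, 7 and 11 wholly lower, against 1.26%, 7.81% and 11.8%. These comparisons share libraries: both tests against vehicle use the vehicle libraries, and both tests of the mutant use its 2 libraries.

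**Figure D4:**
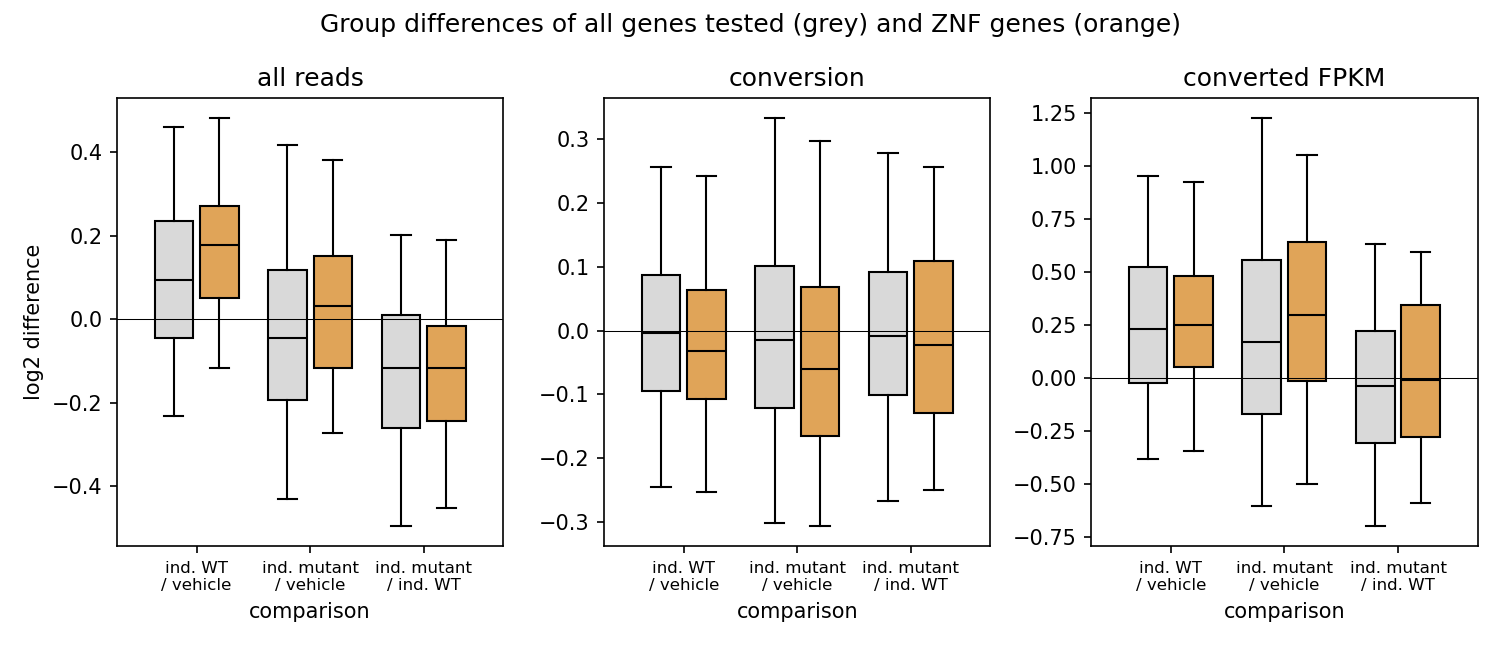
Log2 differences of all genes tested (grey) and of the ZNF genes tested (orange) in all reads, conversion and converted FPKM, for 3 comparisons. Boxes show quartiles and median, whiskers the 5th and 95th percentiles. The orange boxes overlap the grey ones throughout, and no ZNF gene passed the threshold.

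Read levels of the members as a whole moved with single libraries. The median log2 difference of members in all reads was 0.18 for the induced wild type against vehicle (all genes 0.09), 0.03 for the mutant against vehicle (all genes -0.04) and -0.12 for the mutant against the induced wild type (all genes -0.12). The gap to all genes was 0.08 in the first comparison and changed to -0.01 without vehicle A and to -0.02 without induced wild type C. In the mutant against vehicle it was 0.07, and changed to -0.03 without vehicle A or without mutant A and to 0.17 without mutant B. Between the mutant and the induced wild type it was 0.00, and ran from -0.08 without induced wild type B to 0.08 without induced wild type C. The median member stood at 6.64 CPM in vehicle A, the lowest of the 8, and at 13.5 CPM in induced wild type C, the highest. Those libraries also had the lowest and highest gene medians of conversion (4.94 and 7.33%), and the 4 libraries with the lowest conversion were the 4 with the lowest member CPM. The part of library quality in these levels was not tested.

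The single members described next are among the 3 ranked first by p on each side of a comparison and readout. In all reads ZNF692 stood at 14.5, 14.0 and 16.9 CPM with vehicle, 15.0, 16.5 and 16.7 CPM in the induced wild type and 11.8 and 11.5 CPM in the mutant. Both mutant libraries lay below all 6 others. The log2 difference between mutant and induced wild type was -0.43 (SE 0.19), with a limma adjusted p of 1.00. ZNF407 in the same libraries stood at 4.90 ± 2.15 CPM with vehicle (n = 3) and 9.08 ± 4.07 in the mutant (n = 2), and its groups overlap.

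In conversion, with all 8 libraries, both mutant libraries lay below all 3 vehicle libraries, relative to the library median, for 33 of 163 members (20.2%), against 13.0% of all genes, and above them for 14 (8.59%), against 10.6%. The member median was -0.06 on the log2 scale, against -0.01 over all genes, and it was -0.03 against -0.003 for the induced wild type and -0.02 against -0.01 between the mutant and the induced wild type. The member median of the mutant against vehicle depended on single libraries: it was -0.012 without mutant A, -0.024 without vehicle A, -0.098 without mutant B and -0.110 without vehicle C. Without mutant A, 78 of the 163 members lay above 0, against 58 with all libraries, and 7 had an unadjusted limma p under 0.05, against 19. ZNF74, a KRAB protein, was converted at 9.66, 9.55 and 10.4% with vehicle, at 9.53, 9.75 and 11.2% in the induced wild type and at 8.54 and 6.82% in the mutant. Its mutant libraries were the lowest of the 8 in percent, and its centred log2 difference from vehicle was -0.41 (SE 0.13), with a limma adjusted p of 0.465. ZNF83 was converted at 3.11, 2.75 and 2.90% with vehicle and at 4.58 and 5.02% in the mutant, with the induced wild type between them at 4.33, 3.83 and 3.57%. Its difference between mutant and vehicle was 0.57 (SE 0.20), with a limma adjusted p of 0.530. ZNF93 differed most between mutant and induced wild type by p, at 6.22 ± 1.01% (SD, n = 2) against 8.53 ± 1.28% (n = 3), with a limma adjusted p of 0.774.

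In converted FPKM the members' median log2 difference was 0.25 for the induced wild type against vehicle (all genes 0.23), 0.30 for the mutant against vehicle (all genes 0.17) and -0.01 for the mutant against the induced wild type (all genes -0.04). The gap of 0.13 in the second of these was 0.04 without vehicle A. A single member came near the threshold. ZNF787, a protein with 7 finger matches, was listed at 0.52, 1.90 and 3.16 FPKM with vehicle, at 4.67, 6.34 and 6.15 FPKM in the induced wild type and at 8.90 and 8.47 FPKM in the mutant. The 3 groups did not overlap in this measure. The vehicle A value was about the size of the step between low FPKM values of that library (0.524), so it lies near the floor. The log2 difference between mutant and vehicle was 1.88 (SE 0.43), with a limma adjusted p of 0.0715, and over 15 other settings the adjusted p ran from 0.0225 to 0.865. It passed the threshold with median centring, with quantile normalization, with the replicate letters as a block and without vehicle C (adjusted p 0.0225). Without vehicle A the log2 difference between mutant and vehicle was 1.48, with a limma adjusted p of 0.0841. The log2 difference between induced wild type and vehicle was 1.34 (SE 0.38), with a limma adjusted p of 0.478.

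The other readouts of ZNF787 did not separate the groups in that way. All reads stood at 9.11, 12.2 and 14.6 CPM with vehicle, 16.5, 12.4 and 15.0 in the induced wild type and 18.8 and 15.8 in the mutant, so that the mutant libraries lay above vehicle and overlapped the induced wild type. The log2 difference in all reads between mutant and vehicle was 0.51 (SE 0.24), with a limma adjusted p of 1.00. Conversion was 11.1, 11.4 and 11.1% with vehicle, 11.8, 10.8 and 12.4% in the induced wild type and 11.5 and 10.3% in the mutant. Conversion of ZNF787 overlapped between all 3 groups, at a median ratio of 1.82.

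**Figure D5:**
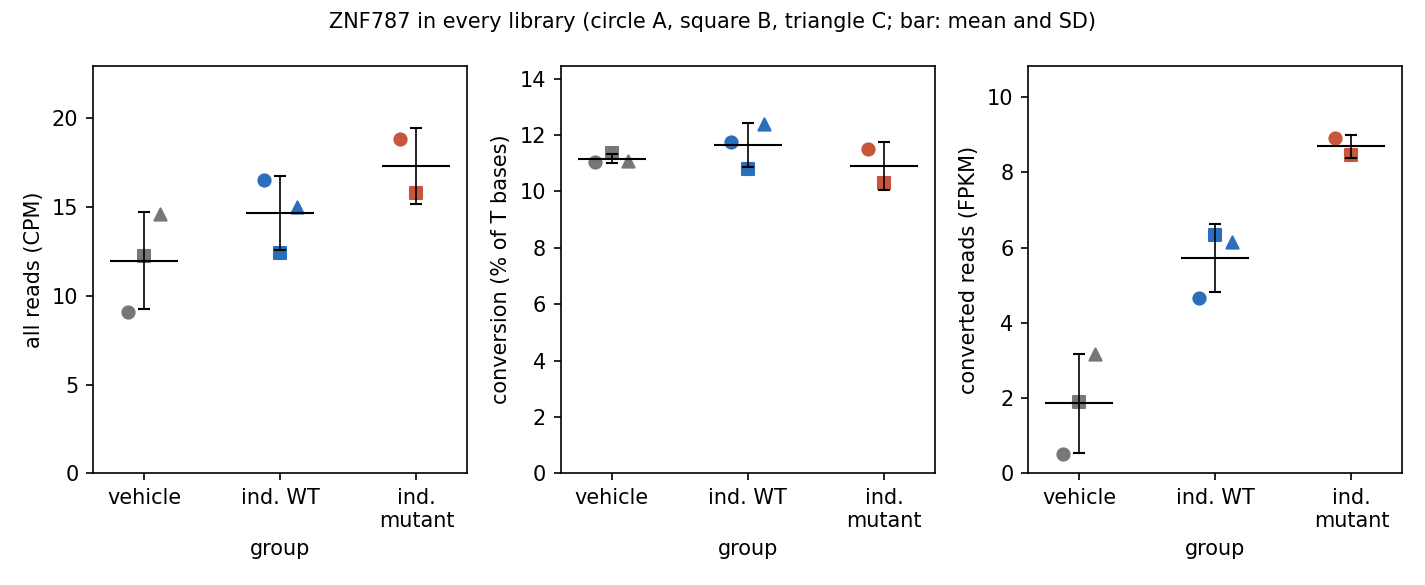
ZNF787 in every library, as all reads (CPM), conversion (% of T bases) and converted reads (FPKM), by group with the mean and SD (n = 3, 3 and 2). Converted reads run from 0.52 FPKM in vehicle A to 8.90 FPKM in mutant A, while conversion lies between 10.3 and 12.4% in all 8 libraries.

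Some other members with small p in converted reads also had low or uneven values. ZNF618 stood at 8.30 and 2.28 FPKM in the mutant and at 0.96 ± 0.97 FPKM with vehicle (SD, n = 3), with a limma adjusted p of 0.228, and mutant A alone carried most of the mutant mean. ZNF335, a chromatin regulator, stood at 5.56, 6.33 and 6.96 FPKM in the induced wild type and at 3.27 and 2.27 FPKM in the mutant, without overlap, while vehicle lay at 4.19, 2.55 and 3.69 FPKM. Its difference between mutant and induced wild type was -0.96 (SE 0.37), with a limma adjusted p of 1.00. ZNF761 lay below all vehicle libraries in both induced groups, with 15.4 ± 1.01 FPKM with vehicle, 11.2 ± 1.04 in the induced wild type and 11.3 ± 2.56 in the mutant (SD, n = 3, 3 and 2), and limma adjusted p of 0.665 and 0.618.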

How the data were processed

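Conversion, read level and converted reads were taken from 2 deposited tables. Per the file headers, the first gives for each RefSeq transcript a signal in CPM (reads per 1000000) and a conversion fraction, and the second gives converted reads in FPKM. The build is hg19 per the submitters' processing notes; no source names the aligner, the conversion caller, the counted region or the use of strand. The deposited signal (CPM) was a whole multiple of 1 read for 100% of values, within 0.1 read, which gave whole reads. Between 80.5 and 96.7% of low deposited FPKM values lay within 0.05 of a whole multiple of 1 common step per library, chosen as the best on a grid of steps after the smallest value had not served as the step, so these were not divided by transcript length.

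The row with the highest mean CPM stood for a gene. Rows without a symbol were left out where their RefSeq gene already had a named row. For 20 members such a row had a higher mean. With these rows named through RefSeq, 168 members had a median ratio of 1.25, with 128 above 1. Members and lists were chosen with earlier results of these data known. Also chosen after values were seen were 7 further splits (read level, span, pseudogenes, overlapping genes, finger number, chromosome 19, neighbours), of which finger number and chromosome 19 showed little difference, and 2 versions of the added KRAB pattern (the end of the box alone, then either pattern). The absolute-difference form of the HMGN1 test replaced tail doubling after its values were seen. Genes named were HMGN1, the 8 highest and 8 lowest ratios, the 6 highest CPM, the 5 highest FPKM, 3 on each side of the limit, the 3 smallest p in each direction, the role list and the extremes of the co-repressor list, of which 1 is not reported here.

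limma 3.58.1 with trend was fitted to log2(CPM + 1) for 12414 genes with a mean of at least 1, to log2(conversion in percent + 0.5), centred on each library's median, for 8656 genes, and to log2(FPKM + 1) for 5737 genes with a mean of at least 1. Fold changes of low genes are understated by the added constant. edgeR 4.0.16 and DESeq2 1.42.0 on recovered reads were alternatives. Only the limma fit of all reads was tried on simulated reads, with changes in the induced wild type, and the conversion and FPKM fits were not. The simulation gave every gene the same dispersion, so it does not show how many real changes the fits would find. Protein matches and positions came from GENCODE 29.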

Additional observations from a re-analysis of the deposited data

How the results depend on the processing

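The members' median conversion ratio lay between 1.23 and 1.30 under all alternatives, with 116 to 131 members above 1 when a library was left out, which also re-chooses the members (median 1.26 to 1.28). The number above 1 was 57 of 79 members at 10 CPM or more and 232 of 296 at 2 CPM or more. The number of members called stayed at 0 in every comparison and setting but 1: for converted FPKM of the mutant against vehicle it was 1 (ZNF787) with median centring, quantile normalization and the replicate block, and 0 to 1 when a library was left out. In that comparison 23 genes were called in all, 1 with a pseudocount of 0.1, 2 with only the 2 groups fitted, 41 with median centring, 93 with quantile normalization, 149 with the replicate block and 0 to 68 without 1 library. In all reads DESeq2 called 75 genes for the mutant against vehicle and 13 for the mutant against the induced wild type, where limma called 4 and 4. Whether the letters A to C pair the samples is not known. Correlations of same-letter deviations from the group mean in all reads ran from -0.65 to 0.65. Deviations of the 2 mutant libraries mirror each other, so these values cannot settle the pairing. The block moved the members' median minus that of all genes, in all reads of the mutant against the induced wild type, to 0.082. In converted FPKM the same difference for the mutant against vehicle was 0.283 with a pseudocount of 0.1 and 0.023 with a mean of at least 5, and for the mutant against the induced wild type -0.062 with a mean of at least 5; the cause was not tested. Leaving out each library gave -0.015 to 0.166, -0.029 to 0.167 and -0.076 to 0.075 in all reads (induced wild type against vehicle, mutant against vehicle, mutant against induced wild type) and, in the same order, -0.055 to 0.002, -0.094 to -0.013 and -0.054 to 0.003 in conversion. It gave 0.043 to 0.176 in converted FPKM of the mutant against vehicle. Libraries of 7985544 to 17747784 reads leave members such as ZNF777 with 38 reads in the shallowest case.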

Other observations

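ZNF316 and ZNF726 have no symbol in the deposited table and were named only through RefSeq accessions, so they are outside the 163 genes. ZNF316 averaged 16.4 CPM and was converted at between 9.02 and 10.96%, and ZNF726 averaged 5.73 CPM and was converted at between 4.29 and 7.92%.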
